A study of Mus musculus with 12 samples.

Results

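Bone marrow of mice lacking Fancc, Fancg or both held 10 genes with a lower signal in all 3 knockout genotypes than in wild type: Akap12, Niban3, Dennd5b, Myo1e, Fam214a, Cpm, Cd209d, Rgs2, Ptprcap and Gpr18. They are 10 of 18193 genes measured and were read on 21 probe sets that carry their symbol alone. The genes were selected on the measured values of these same arrays, as genes low in every knockout that are not among the classic B-cell markers. Their differences from wild type are therefore given as a description, with no test. The question asked of them is whether each one follows the B cells, read through Cd79a, the signal-transducing alpha chain of the B-cell receptor.

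Marrow was flushed from tibia and femur, left unfractionated and uncultured, and hybridised as labelled cRNA to Affymetrix mouse arrays, with 12 mice and 1 array per mouse. The 4 groups of 3 mice were wild-type C57Bl/6, Fancc-/- (nullizygous for Fancc), Fancg-/- (nullizygous for Fancg) and a double knockout nullizygous for both. The labels give no age or sex of the mice and no strain for the knockouts. Values are log2 signals, so a difference of 1 means a doubling of signal.

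The products of Fancc and Fancg belong to the core complex of the Fanconi anemia pathway. It responds to DNA crosslinks that stall replication, and patients who lack it develop marrow failure. Marrow makes B cells through a series of precursor stages, and Cd79a is present from the early stages on. The 10 genes have varied roles. Ptprcap binds the phosphatase CD45 in lymphocytes, Gpr18 is a G-protein-coupled receptor of lymphocytes, and Niban3 belongs to the Niban family and is known from B cells. Akap12 is a scaffold that anchors protein kinases A and C, and Rgs2 speeds GTP hydrolysis by G proteins and so shortens their signal. Cpm is a carboxypeptidase held on the cell surface, and Cd209d is a C-type lectin related to human DC-SIGN. Dennd5b carries a DENN domain, which activates Rab proteins of membrane traffic, and Myo1e is a single-headed myosin that links actin to membranes.

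Array medians ran from 4.79 to 4.87, and arrays of 1 group correlated at 0.954 to 0.993 over the 11908 genes tested. Marrow markers were bright throughout: Elane, a neutrophil protease, lay between 12.66 and 13.12 and Alas2, the erythroid heme enzyme, between 11.49 and 13.04. Hba-a1 was dim (3.47 to 3.78) on its single-symbol probe set. Fancg spanned 6.80 to 6.86 on wild-type arrays. It spanned 6.43 to 6.72 where Fancc alone was lost, 6.00 to 6.64 where Fancg alone was lost and 5.61 to 5.83 where both were lost. Fancc read 5.90 to 6.18 in wild type and 5.96 to 6.17 in Fancc-/-, so it was not lower in its own knockout. Whether these probe sets lie in the deleted parts is not known, so they check no label.

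Marks of sex did not match across genotypes. Xist, which coats the inactive X chromosome, was at 11.19 to 12.23 on the wild-type and Fancc-/- arrays and at 5.99 to 7.39 in the double knockout. Y-linked Eif2s3y was at 2.89 to 3.30 on the former and at 8.81 to 9.35 on the latter. Among the Fancg-/- arrays, replicate 2 resembled the double knockout (Xist 7.34, Eif2s3y 9.09). Replicates 1 and 3 carried both marks (Xist 11.31 and 10.75, Eif2s3y 7.64 and 5.78), unlike every other array. Y-linked Kdm5d was at 3.07 to 3.38 in wild type and Fancc-/- and at 5.32 to 5.67 in the double knockout. On Fancg-/- replicates 1, 2 and 3 it read 4.24, 5.22 and 3.35. Unlike Eif2s3y, Kdm5d on replicate 3 thus lay within the wild-type and Fancc-/- range. Uty spanned 3.46 to 4.22 over all arrays. Fancg-/- replicate 3 was also made from 0.91 µg of RNA, where every other array used 2 µg. Wild type and Fancc-/- shared the same marks. Fancg-/- and the double knockout parted from wild type in them, so genotype and the marks cannot be told apart there. With Xist as a covariate, double knockout minus wild type moved from -0.54 to -0.72 for Fam214a and from -0.67 to -0.56 for Cd209d. No other difference from wild type moved beyond the replicate spread with it, and the part of the marks was otherwise not tested. Values that involve Fancg-/- are also given without its replicates 1 and 3, which leaves 1 Fancg-/- array.

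Every knockout array lay below every wild-type array for all 10 genes, which the selection fixed; 3.7% of the tested genes showed the same separation. Reading from the clearest to the narrowest, the gap between the lowest wild-type and the highest knockout array was 0.86 for Dennd5b, 0.76 for Niban3, 0.59 for Gpr18, 0.56 for Cd209d, 0.55 for Myo1e and 0.50 for Cpm. It was 0.28 for Akap12, 0.19 for Ptprcap, 0.18 for Fam214a and 0.15 for Rgs2. The marrow was not fractionated, so fewer cells of a type and less RNA per cell cannot be told apart in any of these values.

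**Figure D1:**
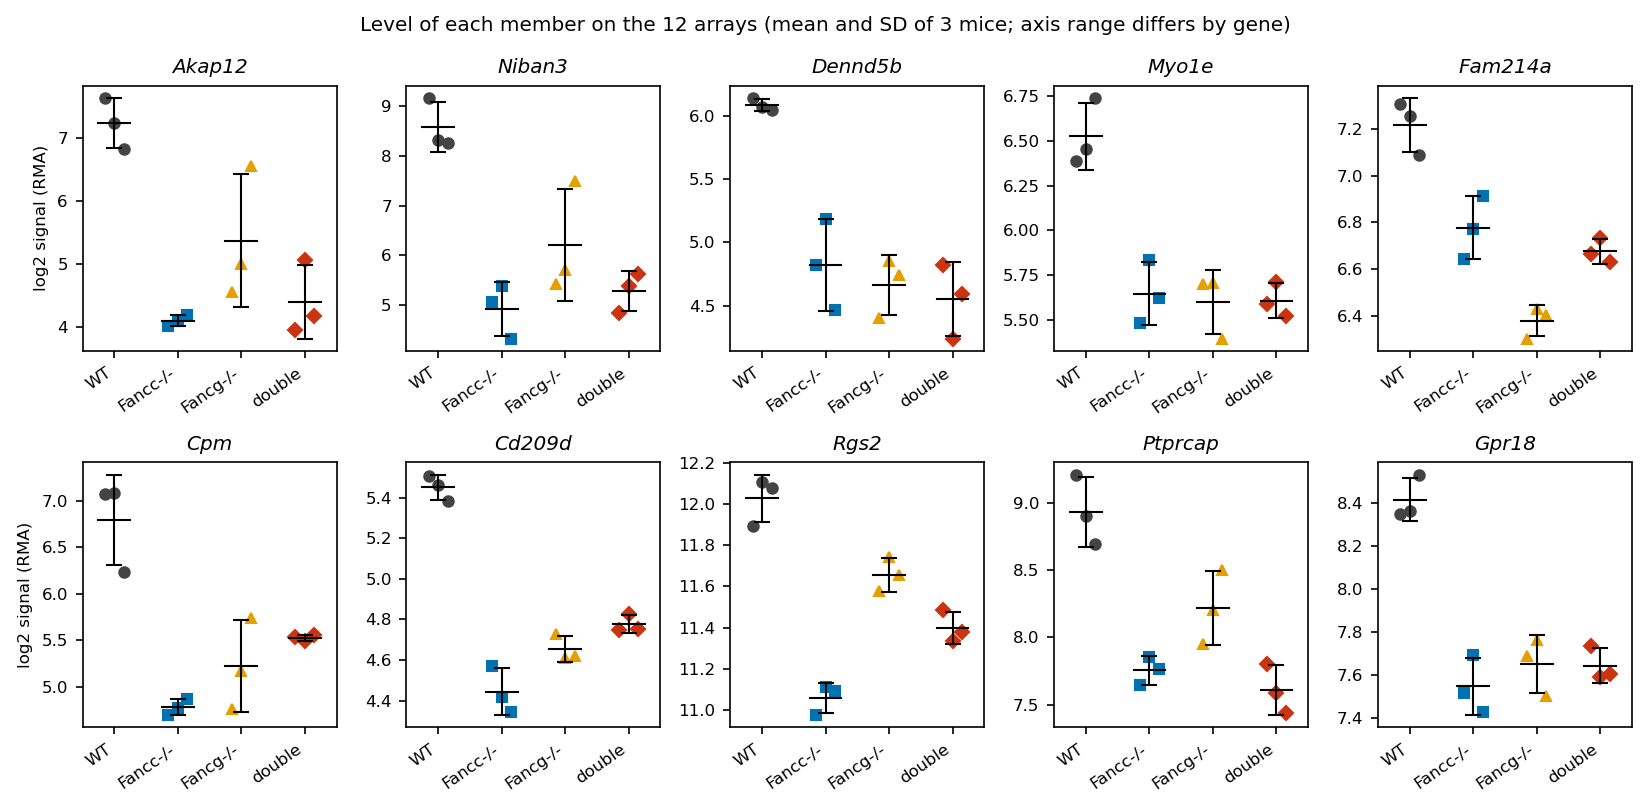
Log2 signal of the 10 genes on each array by genotype (points, 3 mice per group; bars, mean and SD). In each panel the wild-type arrays lie above all 9 knockout arrays, and for Akap12 (6.56) and Niban3 (7.50) 1 Fancg-/- array, replicate 3, sits far above the other knockout arrays.

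Ptprcap and Gpr18, both genes of lymphocytes, had unlike spreads among the knockouts. Ptprcap read 9.21, 8.90 and 8.69 in wild type, 7.65, 7.86 and 7.76 in Fancc-/-, 7.95, 8.20 and 8.50 in Fancg-/- and 7.81, 7.59 and 7.44 in double knockouts. The highest knockout array, Fancg-/- replicate 3, came within 0.19 of wild type, and the Fancg-/- arrays lay above all other knockout arrays. The differences from wild type were -1.18 in Fancc-/-, -0.72 in Fancg-/- and -1.32 in double knockouts (SE 0.17), or 2.26-, 1.64- and 2.50-fold lower. Gpr18 read 8.35, 8.37 and 8.54 in wild type, 7.52, 7.69 and 7.43 in Fancc-/-, 7.69, 7.76 and 7.50 in Fancg-/- and 7.74, 7.59 and 7.60 in double knockouts. All 9 knockout arrays of Gpr18 lay in a band from 7.43 to 7.76, and the genotypes overlapped within it. Its differences were -0.87, -0.77 and -0.78 in the same order (SE 0.12).

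Niban3 had the largest differences of the 10. It read 9.16, 8.32 and 8.26 in wild type, 5.06, 5.39 and 4.32 in Fancc-/-, 5.42, 5.70 and 7.50 in Fancg-/- and 4.83, 5.37 and 5.62 in double knockouts. Fancg-/- replicate 3 stood high. The double knockout overlapped each single knockout, while the Fancg-/- arrays lay just above those of Fancc-/-. Its differences from wild type were -3.66 in Fancc-/-, -2.38 in Fancg-/- and -3.31 in double knockouts (SE 0.48), or 12.6-, 5.19- and 9.89-fold lower. Without replicate 3 the Fancg-/- difference was -3.02.

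Akap12, the kinase scaffold, read 7.63, 7.24 and 6.83 in wild type, 4.03, 4.11 and 4.19 in Fancc-/-, 4.56, 5.01 and 6.56 in Fancg-/- and 3.96, 5.06 and 4.18 in double knockouts. As with Niban3, Fancg-/- replicate 3 lay close to wild type and no other knockout array did. The differences were -3.13, -1.86 and -2.83 (SE 0.43), or 8.74-, 3.63- and 7.12-fold lower in signal, and -2.45 in Fancg-/- without replicate 3. Of its 9 knockout arrays, 3 read above their array's median. The files give no call of background, so at the dim arrays these folds are ratios of signal and not of RNA. The G-protein regulator Rgs2 read 11.89, 12.11 and 12.08 in wild type, 10.98, 11.11 and 11.09 in Fancc-/-, 11.58, 11.74 and 11.65 in Fancg-/- and 11.48, 11.33 and 11.38 in double knockouts. On this brightest probe set no 2 genotypes overlapped: Fancc-/- was lowest, the double knockout next, then Fancg-/-, then wild type. The Rgs2 differences were -0.97, -0.37 and -0.63 (SE 0.09).

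Of the surface proteins, Cpm read 7.07, 7.08 and 6.24 in wild type, 4.70, 4.77 and 4.87 in Fancc-/-, 4.77, 5.17 and 5.74 in Fancg-/- and 5.53, 5.49 and 5.56 in double knockouts. The double-knockout arrays lay above all Fancc-/- arrays, and Fancg-/- spread over both. The Cpm differences were -2.01, -1.57 and -1.27 (SE 0.25), or 4.04-, 2.97- and 2.41-fold lower. Cd209d, the lectin, read 5.51, 5.46 and 5.38 in wild type, 4.57, 4.42 and 4.34 in Fancc-/-, 4.73, 4.61 and 4.62 in Fancg-/- and 4.75, 4.83 and 4.75 in double knockouts. The order of its 3 knockout groups is not read, as all 9 values lay below their array's median. Its differences were -1.01, -0.80 and -0.67 (SE 0.09). Cd209d was dim: it entered the test only through the 3 wild-type arrays, and 0 of its 9 knockout arrays were above their array's median.

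The membrane-traffic gene Dennd5b read 6.14, 6.07 and 6.05 in wild type, 4.82, 5.18 and 4.46 in Fancc-/-, 4.40, 4.85 and 4.74 in Fancg-/- and 4.82, 4.24 and 4.59 in double knockouts. Its wild-type arrays had an SD of 0.05 (n = 3), and the knockout genotypes overlapped. Dennd5b was above the array median on 2 knockout arrays, fewer than the 3 arrays the filter asks. It therefore entered the test through wild type, and nothing is read from its differences, correlations or slopes among the knockouts. The differences were -1.26, -1.42 and -1.53 (SE 0.19). Myo1e, the myosin, read 6.39, 6.46 and 6.74 in wild type, 5.48, 5.83 and 5.62 in Fancc-/-, 5.70, 5.70 and 5.39 in Fancg-/- and 5.59, 5.71 and 5.52 in double knockouts. As for Gpr18 the knockout genotypes overlapped, with differences of -0.88, -0.93 and -0.92 (SE 0.14). Fam214a read 7.31, 7.26 and 7.09 in wild type, 6.64, 6.77 and 6.91 in Fancc-/-, 6.30, 6.43 and 6.40 in Fancg-/- and 6.66, 6.73 and 6.63 in double knockouts. The Fancg-/- arrays were the lowest for this gene and did not overlap the other knockouts, and the differences were -0.44, -0.84 and -0.54 (SE 0.11).

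A gene was tested if its brightest probe set was above the array median on at least 3 arrays, and 5 of the 10 (Myo1e, Fam214a, Rgs2, Ptprcap and Gpr18) were so on all 12 arrays. Niban3 was above it on 8 knockout arrays, Cpm on 6, Akap12 on 3 and Dennd5b on 2, besides the 3 wild-type arrays each. The median difference of the 10 genes was -1.09 in Fancc-/-, -0.89 in Fancg-/- and -1.10 in double knockouts, against -0.01, 0.01 and -0.01 over all genes tested. By the limma test with Benjamini-Hochberg adjustment, 10 of 10 were called lower in Fancc-/- (2.36% of tested genes were), 4 in Fancg-/- (0.042%) and 10 in the double knockout (3.01%). The selection used these contrasts, so nothing is read from those counts. The 3 contrasts also share the wild-type arrays. Without Fancg-/- replicates 1 and 3 the Fancg-/- differences from wild type were -2.23 for Akap12, -2.88 for Niban3, -1.23 for Dennd5b, -0.82 for Myo1e and -0.79 for Fam214a. They were -1.62 for Cpm, -0.84 for Cd209d, -0.29 for Rgs2, -0.73 for Ptprcap and -0.65 for Gpr18, so all 10 remained below 0.

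**Figure D2:**
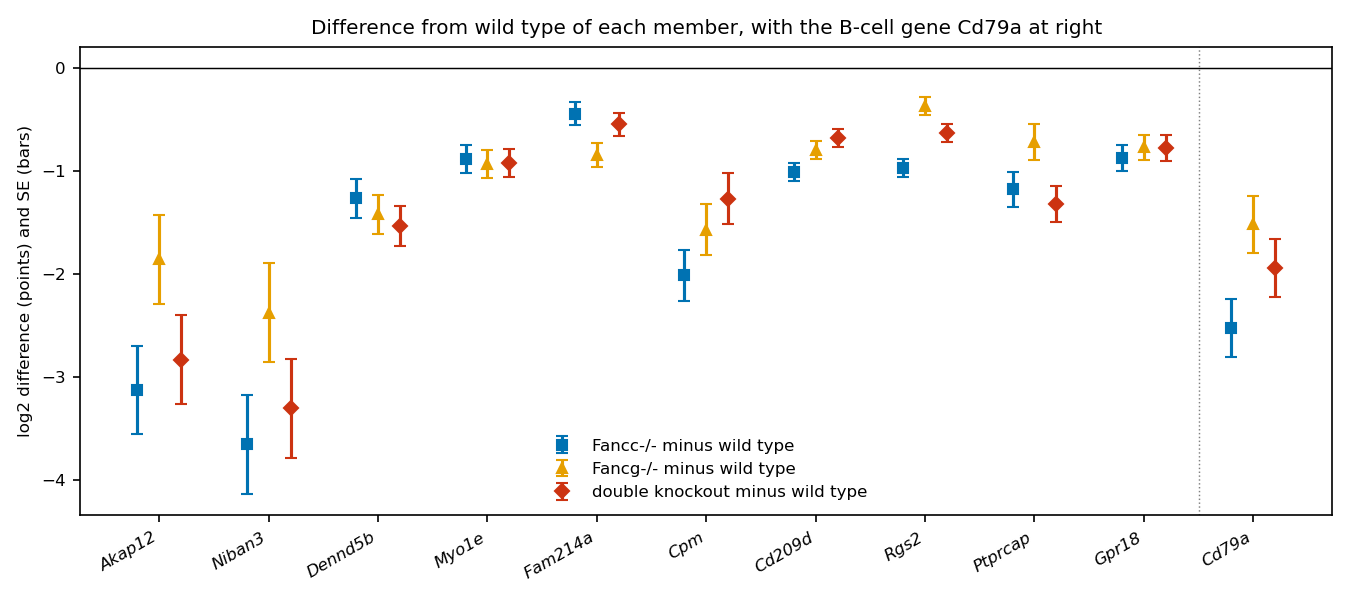
Log2 difference from wild type of the 10 genes and of Cd79a in each knockout genotype (points), with SE from the limma fit (bars). Niban3 and Akap12 lie below Cd79a in all 3 genotypes, and in Fancc-/- Fam214a is nearest to 0 (-0.44).

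Several genes were read on more than 1 probe set. By their means all 4 Rgs2 probe sets were lower in each knockout, with differences of -0.97 to -1.30 for Fancc-/-, -0.37 to -0.60 for Fancg-/- and -0.63 to -1.29 for the double knockout. Genotypes were not apart on all of them. Fancc-/- and the double knockout overlapped on one (9.18 to 9.64 and 9.16 to 9.67) and on another (5.05 to 5.30 and 5.06 to 5.29). On the latter a Fancg-/- array (5.78) also lay above a wild-type array (5.75). The second Cpm probe set gave -1.53, -1.26 and -1.36. The second Fam214a probe set gave -0.41, -0.78 and -0.32. For Dennd5b the other 3 probe sets were dimmer and gave smaller differences, from -0.18 to -0.68. For Myo1e the other 3 were dimmer too, and 1 of them gave 0.17, -0.06 and -0.08, so Myo1e was not lower on every probe set. Akap12, Niban3, Cd209d, Ptprcap and Gpr18 had a single probe set each.

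Cd79a itself read 10.64, 10.20 and 10.30 in wild type, 7.56, 8.28 and 7.73 in Fancc-/-, 8.36, 8.75 and 9.48 in Fancg-/- and 8.74, 8.49 and 8.09 in double knockouts. Its differences from wild type were -2.52, -1.52 and -1.94 (SE 0.28), and no knockout array reached the wild-type range. Of the 25 measured genes on the B-cell list, 20 fell in Fancc-/-, 0 in Fancg-/- and 20 with both genes lost by the limma test, with medians between -2.30 in Fancc-/- and -1.35 in Fancg-/-. In Fancg-/-, 21 of the 25 had an unadjusted p below 0.05. The list's summed linear signal ran from 11802 to 15904 on the wild-type arrays, against 3097 to 4766 for Fancc-/-, 4324 to 8824 for Fancg-/- and 3553 to 4887 for the double knockout. Fancg-/- replicate 3 thus had the highest Cd79a of the knockouts, and its mean over the list (7.75) stood above the other 8 knockout arrays (6.00 to 6.80).

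Set against the difference of Cd79a in the same genotype, that of Niban3 was 145%, 157% and 171% as large on the log2 scale in Fancc-/-, Fancg-/- and the double knockout. Akap12 reached 124%, 123% and 146%. Cpm came to 79.8%, 103% and 65.5%, Dennd5b to 50.1%, 93.6% and 79.0%, and Ptprcap to 46.7%, 47.3% and 68.2%. The other 5 stayed at 61.3% or less in each genotype, with Rgs2 at 38.3%, 24.4% and 32.4%. Different probe sets respond to RNA on different scales, and several of these genes were dim in the knockouts, so these ratios describe the arrays and not numbers of cells.

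Promoter windows are shown for Rgs2, Niban3 and Cpm, which had a Pearson r of 0.81, 0.77 and 0.69 with Cd79a over the knockout arrays, for Myo1e and Gpr18, which had -0.16 and 0.31, and for Cd79a, to set them side by side. Without Fancg-/- replicate 3, r was 0.50 for Myo1e and 0.87 for Gpr18, so neither is a gene shown not to follow Cd79a. Each is the 300 bases from 250 before to 50 after the annotated start, read 5′ to 3′ on the gene's strand, from RefSeq on GRCm38.p6. Capitals mark matches on either strand to CCCNNGGG, the core of the site of Ebf1, a factor that specifies B cells, or to CAGGTG, an E box bound by E proteins. Rgs2 lies on the minus strand at chr1:144004100-144004399, Niban3 on the plus strand at chr8:71597458-71597757, Cpm on the plus strand at chr10:117629250-117629549 and Myo1e on the plus strand at chr9:70207100-70207399. Gpr18 lies on the minus strand at chr14:121915839-121916138, and Cd79a on the plus strand at chr7:24897247-24897546.
Rgs2: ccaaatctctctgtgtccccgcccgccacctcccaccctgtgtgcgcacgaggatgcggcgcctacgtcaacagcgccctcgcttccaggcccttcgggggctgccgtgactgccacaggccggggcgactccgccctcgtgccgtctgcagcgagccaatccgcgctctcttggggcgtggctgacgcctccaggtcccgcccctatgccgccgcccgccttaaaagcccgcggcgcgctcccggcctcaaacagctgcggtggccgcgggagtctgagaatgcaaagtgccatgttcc
Niban3: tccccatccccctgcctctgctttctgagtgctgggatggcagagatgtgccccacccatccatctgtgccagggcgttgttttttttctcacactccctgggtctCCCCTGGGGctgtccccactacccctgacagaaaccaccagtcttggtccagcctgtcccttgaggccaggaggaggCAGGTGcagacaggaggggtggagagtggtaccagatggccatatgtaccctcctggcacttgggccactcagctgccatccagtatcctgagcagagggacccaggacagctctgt
Cpm: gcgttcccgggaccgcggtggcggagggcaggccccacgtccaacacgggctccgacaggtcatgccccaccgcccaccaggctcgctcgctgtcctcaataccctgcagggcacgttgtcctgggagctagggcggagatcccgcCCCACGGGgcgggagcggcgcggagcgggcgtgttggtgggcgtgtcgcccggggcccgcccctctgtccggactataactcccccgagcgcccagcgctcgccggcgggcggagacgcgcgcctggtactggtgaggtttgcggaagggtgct
Myo1e: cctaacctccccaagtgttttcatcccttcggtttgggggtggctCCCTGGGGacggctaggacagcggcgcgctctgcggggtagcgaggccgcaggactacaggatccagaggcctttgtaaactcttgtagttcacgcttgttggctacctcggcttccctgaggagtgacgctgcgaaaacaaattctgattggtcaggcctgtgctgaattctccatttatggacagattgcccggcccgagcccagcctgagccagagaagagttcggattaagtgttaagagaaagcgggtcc
Gpr18: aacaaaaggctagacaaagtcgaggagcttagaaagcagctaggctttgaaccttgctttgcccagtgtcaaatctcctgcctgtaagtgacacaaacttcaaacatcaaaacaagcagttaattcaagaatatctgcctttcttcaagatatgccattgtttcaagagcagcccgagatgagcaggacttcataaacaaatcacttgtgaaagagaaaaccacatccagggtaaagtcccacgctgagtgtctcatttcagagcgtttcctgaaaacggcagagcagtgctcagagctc
Cd79a: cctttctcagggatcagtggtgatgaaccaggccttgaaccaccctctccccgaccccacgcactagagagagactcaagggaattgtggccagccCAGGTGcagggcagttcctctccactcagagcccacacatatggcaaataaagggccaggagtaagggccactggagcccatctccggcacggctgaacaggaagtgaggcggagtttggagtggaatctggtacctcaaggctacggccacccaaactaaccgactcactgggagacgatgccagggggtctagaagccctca
Niban3 holds 2 overlapping CCCNNGGG matches that begin at -144 and -143 from the start and a CAGGTG at -67. Cpm holds 1 CCCNNGGG at -104 and Myo1e 1 at -205, and Dennd5b, not shown, has 1 at 6. The windows of Rgs2 and Gpr18 have no match and that of Cd79a has a CAGGTG at -154. Windows were found for 8 of the 10 genes, 10 windows in all. CCCNNGGG occurs in 4 of these 10 and in 13.7% of all 32851 windows, and CAGGTG in 2 and in 20.2%. The 4 windows with CCCNNGGG had a GC content of 56.7% (Myo1e) to 73.7% (Cpm), against a median of 52.7% over all windows. Those without it ran from 44% (Gpr18) to 70% (Rgs2), and 3 of the 10 windows are of Fam214a. The count was not adjusted for base content, so no excess is read from it. ATGCAAAT, the octamer, occurs in 0 of the 10 and in 1.74% of all, and GAGGAAGT, an Ets site, in 2 (both of Fam214a, overlapping) and in 3.2%. These are matches to exact strings, so a site that differs from its string is not found, and a window with no match may still hold a site. The part of any such site in the values was not tested.

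Differences between the knockout genotypes were not used to choose the genes, though choosing genes low in every knockout bears on how far these can part. In Fancg-/- minus Fancc-/-, 1 of the 10 genes passed the limma test, where 0.109% of tested genes did. That gene was Rgs2, at 11.66 ± 0.08 (SD, n = 3) in Fancg-/- and 11.06 ± 0.07 in Fancc-/-, a difference of 0.60 ± 0.09 SE (95% interval 0.41 to 0.78, limma adjusted p = 0.0369), higher on 3 of 3 arrays. The other 3 Rgs2 probe sets gave 0.55, 0.45 and 0.71. The call was lost in 15 of 25 alternatives, with an adjusted p of 0.021 to 0.639 over them, while the difference stayed between 0.55 and 0.68. Among the arrays, leaving out wild-type replicate 2 or 3, Fancc-/- replicate 1, any Fancg-/- replicate or double-knockout replicate 3 ended it (limma adjusted p of 0.0566 to 0.208). With Xist as a covariate the difference was 0.56 (adjusted p = 0.329), and without Fancg-/- replicates 1 and 3 it was 0.68 (adjusted p = 0.639).

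The other 9 genes did not pass between the single knockouts. Akap12 stood at 1.27 (95% interval 0.33 to 2.21, limma adjusted p = 0.419) and Niban3 at 1.28 (0.23 to 2.33, adjusted p = 0.464), and without Fancg-/- replicate 3 the differences were 0.68 and 0.63. Ptprcap stood at 0.46 (0.08 to 0.84) and Fam214a at -0.40 (-0.65 to -0.15, adjusted p = 0.327). The intervals of Cpm (-0.09 to 0.98), Dennd5b (-0.57 to 0.26), Gpr18 (-0.16 to 0.37) and Myo1e (-0.35 to 0.25) took in 0. Without Fancg-/- replicate 3, Cpm stood at 0.19, Ptprcap at 0.32, Gpr18 at 0.18 and Myo1e at 0.06. Without replicates 1 and 3 the differences were 0.90 for Akap12, 0.77 for Niban3, 0.45 for Ptprcap, -0.35 for Fam214a, 0.39 for Cpm, 0.03 for Dennd5b, 0.22 for Gpr18 and 0.06 for Myo1e. Cd209d stood at 0.21 and at 0.17 without them. Its knockout values were all below their array's median, where it would not have been tested. Nothing is therefore read from its differences between knockouts. The same holds for Dennd5b, above the median on 2 knockout arrays where the filter asks 3. Over all genes, 1076 had an unadjusted p below 0.05 in this comparison, 6 of them members of the 10.

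The double knockout was set against each single knockout. Every Fancc-/- array had high Xist (11.19 to 12.13) and every double-knockout array had high Eif2s3y (8.81 to 9.35). Loss of Fancg and these marks of sex cannot be told apart between those groups. Against Fancc-/-, 0 of the 10 passed the limma test (0.0084% of tested genes did), with 2345 genes and 3 of the 10 at an unadjusted p below 0.05. Those 3 were higher in the double knockout: Cpm by 0.75 (95% interval 0.21 to 1.28, limma adjusted p = 0.148), Rgs2 by 0.34 (0.15 to 0.53, adjusted p = 0.0915) and the dim Cd209d by 0.33. These are values of the brightest probe sets. With the mean of all probe sets, Cpm stood at 0.46 (limma adjusted p = 0.268) and Rgs2 at 0.17 (adjusted p = 0.522). The double knockout and Fancc-/- overlapped on the second Cpm probe set and on some Rgs2 probe sets, as given above for Rgs2. Against Fancg-/-, 0 passed (0% of tested genes did, with 1714 at an unadjusted p below 0.05, 4 of them among the 10). Ptprcap was lower by 0.61 there (difference -0.61, -0.99 to -0.23, adjusted p = 0.186), Rgs2 stood at -0.26, Akap12 at -0.97, Niban3 at -0.93, Cpm at 0.30 and Fam214a at 0.30. Without Fancg-/- replicate 3, Akap12 stood at -0.38, Niban3 at -0.28, Cpm at 0.56 and Ptprcap at -0.47. Without replicates 1 and 3 they stood at -0.61, -0.42, 0.35 and -0.59, Rgs2 at -0.34, Fam214a at 0.25 and Dennd5b at -0.30. With all arrays Myo1e stood at 0.01 (-0.29 to 0.31) and Gpr18 at -0.01 (-0.28 to 0.26). Without Fancg-/- replicates 1 and 3, Myo1e stood at -0.10 and Gpr18 at -0.12. Those intervals give the differences that 3 arrays a group leave possible and are not a limit of detection.

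**Figure D3:**
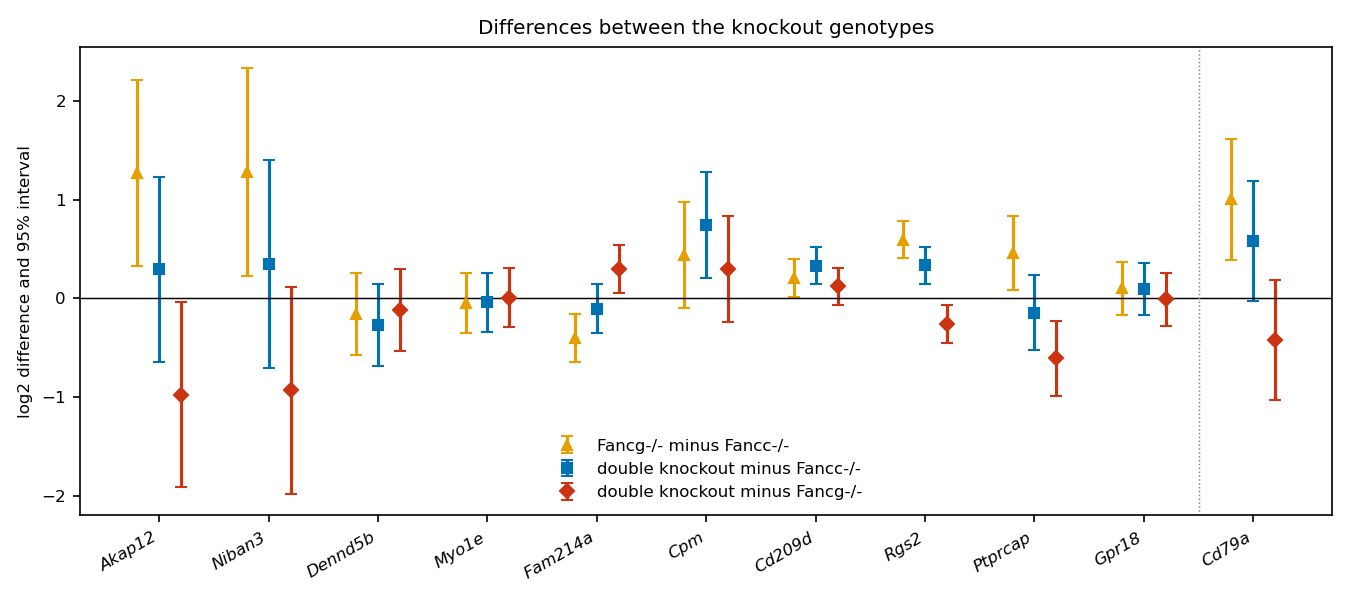
Log2 differences between the knockout genotypes for the 10 genes and Cd79a (points) with 95% intervals from the limma fit (bars). Rgs2 in Fancg-/- minus Fancc-/- (0.60) is the one member difference that passed the adjusted threshold, and Myo1e and Gpr18 lie near 0 in all 3 comparisons.

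Whether each gene follows the B cells was first asked over the 9 knockout arrays, since wild type was used in the choice. Rgs2 had the highest correlation with Cd79a (Pearson r = 0.81, exact permutation p = 0.00632; Spearman rho = 0.87, exact p = 0.00451). Akap12 followed (r = 0.79, exact p = 0.0117; rho = 0.55, exact p = 0.133), then Niban3 (r = 0.77, exact p = 0.0183; rho = 0.57, exact p = 0.121). Ptprcap (r = 0.76, exact p = 0.0192; rho = 0.67, exact p = 0.0589) and Cpm (r = 0.69, exact p = 0.0378; rho = 0.60, exact p = 0.0968) came next. These 5 of the 10 genes had r above 0 and an unadjusted p below 0.05, as did 5.4% of tested genes.

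The other 5 had an unadjusted p above 0.05 over these arrays. Cd209d had r = 0.36 (exact permutation p = 0.346; rho = 0.37, exact p = 0.336), Gpr18 r = 0.31 (exact p = 0.427; rho = 0.38, exact p = 0.312) and the mostly dim Dennd5b r = 0.11 (exact p = 0.791; rho = 0.15, exact p = 0.708). Myo1e had r = -0.16 (exact p = 0.688; rho = 0.05, exact p = 0.912). Fam214a had r = -0.55 (exact p = 0.122; rho = -0.45, exact p = 0.230). Cd79a spanned 7.56 to 9.48 on these arrays, and over that span Gpr18 kept to 7.43 to 7.76 and Myo1e to 5.39 to 5.83.

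None of the 10 correlations passed Benjamini-Hochberg adjustment over the 11907 genes tested (exact permutation p adjusted to at least 0.592 for each; 0% of genes passed, and 905 had an unadjusted p below 0.05). Without the 2 arrays farthest from the median of Cd79a, Fancg-/- replicate 3 and Fancc-/- replicate 1, r dropped to 0.39 for Akap12, 0.48 for Niban3, 0.46 for Ptprcap and 0.37 for Cpm. Over arrays, the correlation of these 4 genes rests on those 2, which also widen the range of Cd79a. Rgs2 kept r = 0.74 over the 7 arrays left, and Gpr18 had 0.87. Fancg-/- replicate 3 had the highest Cd79a and one of the lower Gpr18 values (7.50), and leaving it out alone also gave 0.87 for Gpr18. The sign of Myo1e turned in the same way, from -0.16 to 0.50 without replicate 3. Without Fancg-/- replicates 1 and 3 together, r was 0.85 for Rgs2, 0.87 for Gpr18, 0.62 for Cpm and 0.44 to 0.49 for Niban3, Ptprcap, Akap12 and Myo1e. It was 0.11 for the mostly dim Dennd5b, -0.49 for Fam214a and 0.51 for the dim Cd209d.

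**Figure D4:**
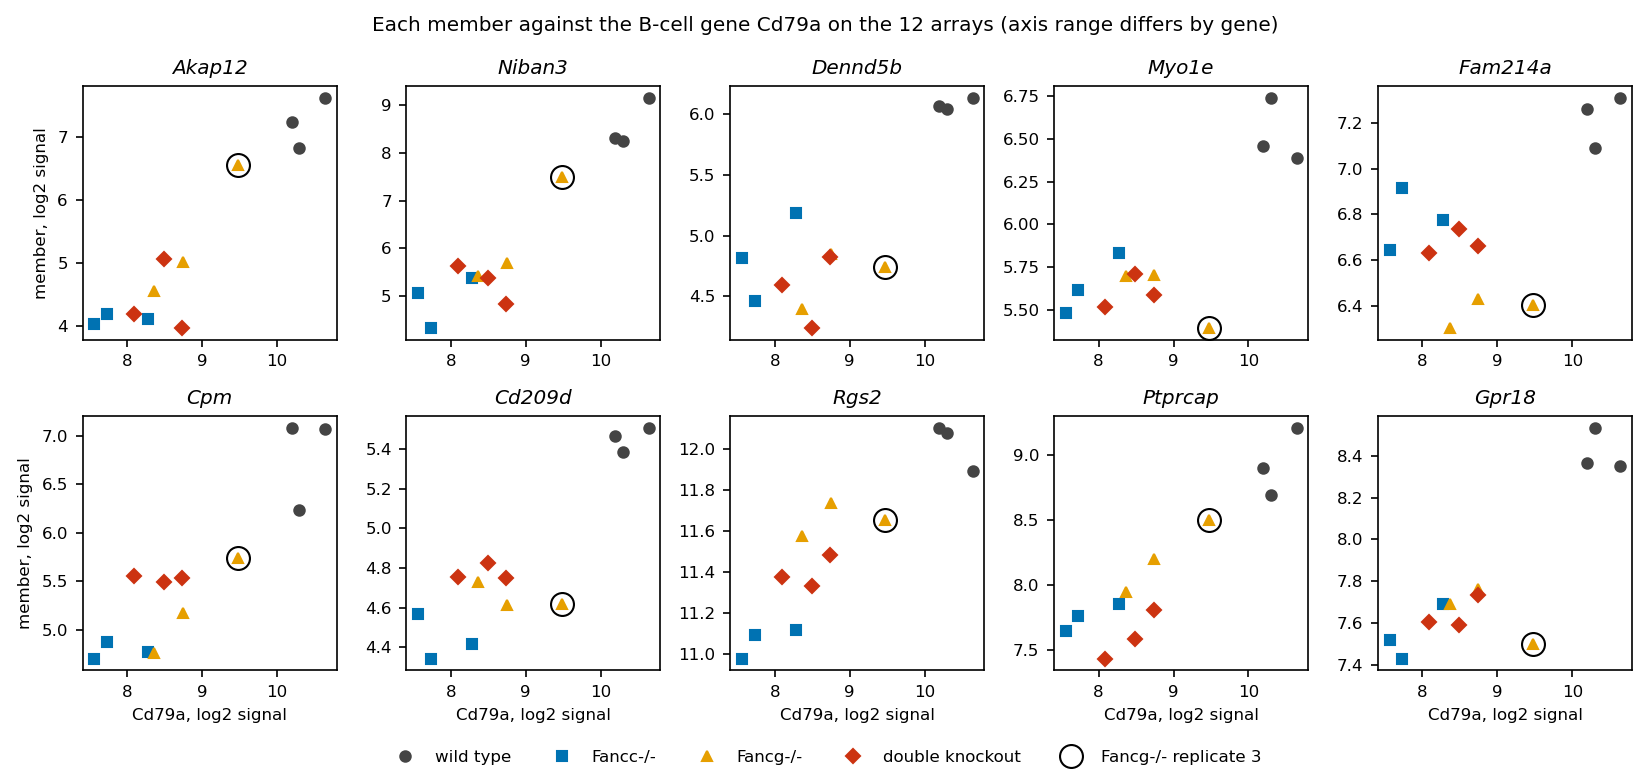
Log2 signal of each gene (vertical axis) against that of Cd79a (horizontal axis) on the 12 arrays, with Fancg-/- replicate 3 ringed. For Akap12, Niban3, Cpm and Ptprcap the ringed array lies between wild type and the other knockouts, whereas for Myo1e and Gpr18 it lies among the lowest values (5.39 and 7.50).

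A second reading set genotype aside by asking, between mice of the same genotype, how much a gene moved per log2 unit of Cd79a. The slope was 1.17 ± 0.42 SE for Niban3 (95% interval 0.24 to 2.10, limma adjusted p = 0.683), 1.05 ± 0.38 for Akap12 (0.21 to 1.88, adjusted p = 0.683) and 0.48 ± 0.13 for Ptprcap (0.19 to 0.78, adjusted p = 0.649). Those 3 had a slope above 0 at an unadjusted p below 0.05, as did 5.67% of tested genes. The slope of Cpm was 0.49 (-0.03 to 1.02) and that of the mostly dim Dennd5b 0.34 (-0.08 to 0.77). Rgs2, which had the highest correlation between arrays, had a slope of 0.04 (-0.18 to 0.26), and its 3 knockout groups did not overlap on its brightest probe set. Fam214a (0.09, -0.18 to 0.36), Gpr18 (-0.02, -0.32 to 0.29), Cd209d (-0.05, -0.27 to 0.16) and Myo1e (-0.06, -0.40 to 0.29) had intervals on both sides of 0 as well. None of the 10 slopes passed after adjustment in limma, nor did any of the 11907 genes (0%, with 833 at an unadjusted p below 0.05).

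Fancg-/- replicate 3 weighed on these slopes. Without it, the slope was 0.32 for Akap12, 0.39 for Niban3 and 0.21 for Cpm, while that of Ptprcap was 0.50. It was 0.53 for Dennd5b, 0.18 for Myo1e and 0.18 for Gpr18, the last 2 turning from below 0 to above it. Without Fancg-/- replicates 1 and 3 the slope was 0.21 for Akap12, 0.35 for Niban3, 0.10 for Cpm, 0.45 for Dennd5b, 0.20 for Myo1e and 0.18 for Gpr18. Leaving out any 1 of the 12 arrays kept the Ptprcap slope between 0.43 and 0.55, and without Fancg-/- replicates 1 and 3 it was 0.48. Deviations of Ptprcap from its genotype means over the 9 knockout arrays correlated with those of Cd79a at 0.95 (exact permutation p = 0.00926, where 0.00463 is the smallest this design can give). The same measure was 0.73 for Cpm (exact permutation p = 0.162), 0.65 for Akap12 (exact p = 0.218), 0.62 for Niban3 (exact p = 0.236) and 0.52 for Dennd5b (exact p = 0.190), and between -0.41 (Cd209d) and 0.50 (Rgs2) for the other 5. After Benjamini-Hochberg adjustment over all genes 0 of these 10 passed. With that smallest possible p, a gene could hardly pass over 11907 genes, so nothing is read from the 0. The part of its lower RNA input and mixed marks in the values of replicate 3 was not tested.

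**Figure D5:**
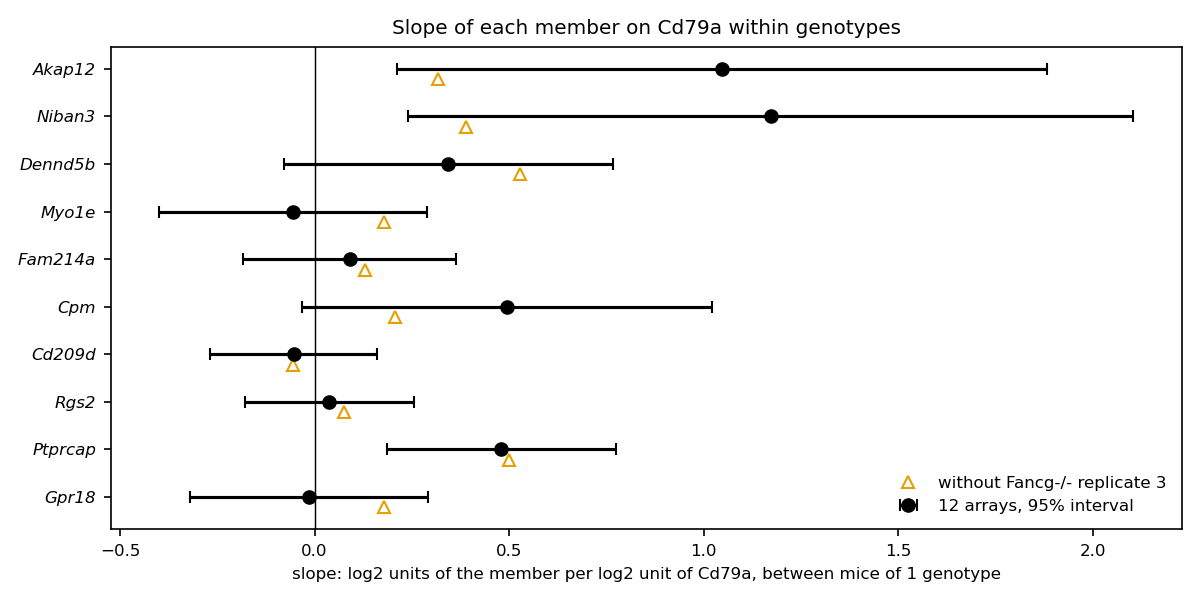
Slope of each gene on Cd79a between mice of 1 genotype, in log2 units per log2 unit (points, with 95% intervals), and the slope without Fancg-/- replicate 3 (open triangles). Akap12 moves from 1.05 to 0.32 and Niban3 from 1.17 to 0.39, whereas Ptprcap stays near 0.5.

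Means over marker lists of other cell types were set beside the genes on the 9 knockout arrays, as a description of arrays that share a library and a genotype. The B-cell list was the closest of 10 lists for Niban3 (r = 0.90), Ptprcap (0.87), Akap12 (0.86), Rgs2 (0.69) and Cpm (0.56). Ptprcap was nearly as close to the neutrophil list (0.84). Gpr18 ran closest with the T and NK cell list (0.83; 0.11 with the B-cell list) and Cd209d with the dendritic cell list (0.66) and nearly as closely with the eosinophil, basophil and mast cell list (0.64), though all its knockout values were dim and nothing is read from them. Dennd5b was closest to megakaryocyte and platelet genes (0.68) and to the erythroid list (0.65). It was dim on most knockout arrays, so nothing is read from these values. The highest r of Myo1e was 0.39 (stroma) and that of Fam214a 0.24 (erythroid).

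Against wild type, the T and NK cell list, with Cd3d, Cd3e and Cd3g, had medians of -0.38, -0.0008 and -0.23 over 22 genes in Fancc-/-, Fancg-/- and the double knockout, and 2, 0 and 0 of them fell by the limma test (10, 5 and 5 at an unadjusted p below 0.05). Its summed signal was 5108 to 5733 on the wild-type arrays, against 2917 to 5549 for Fancc-/-, 5494 to 6487 for Fancg-/- and 4303 to 5726 for the double knockout. The dendritic cell list, with Itgax, Flt3 and Siglech, had medians of -1.18, -0.83 and -0.53 over 14 genes tested, of which 5, 0 and 3 fell by limma (12, 8 and 8 at an unadjusted p below 0.05). Its summed signal was 13270 to 13827 in wild type against 3737 to 8329, 6755 to 7636 and 7451 to 8326, so it did not overlap wild type in any knockout. The part of these cells in the values of Gpr18 and Cd209d was not tested.

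For each gene the 3 genes of most alike pattern were named by Pearson r over all 12 arrays, a measure that takes in the gap between wild type and knockouts. Akap12 was most like Vpreb3 (0.98), Dntt (0.98) and Igll1 (0.97), and Niban3 was most like Rag1 (0.98), Vpreb3 (0.98) and Cerk (0.98). Vpreb3 and Igll1 are surrogate light-chain genes of B-cell precursors, Dntt adds bases at recombined antigen-receptor joints, and Rag1 cuts the DNA for that recombination. Vpreb3 stood at 9.36 in wild type and had a knockout median of 5.99, with a highest knockout value of 8.74. Cpm was most like Arntl (0.95), Rras2 (0.95) and Ebf1 (0.94). Rgs2 was most like the tetraspanin Cd37 (0.95), the complement receptor Cr2 (0.94) and Hes1 (0.92), and Ptprcap most like Gimap1 (0.96), Fcrl1 (0.96) and Rrm2b (0.96).

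Gpr18 and Myo1e were each other's nearest gene (0.97). After that Gpr18 was nearest to Aff3 (0.95) and Atp10d (0.95), and Myo1e to Brd2 (0.91) and Snx30 (0.90). Dennd5b was most like Zcchc18 (0.95), Snx30 (0.94) and Lbh (0.94), Cd209d most like Rtl6 (0.94), Man2a2 (0.94) and Snx5 (0.93), and Fam214a most like the pseudokinase Trib2 (0.90), Crkl (0.87) and Tmem163 (0.86). Vpreb3, Dntt, Igll1, Rag1, Ebf1, Cd37 and Cr2 are on the B-cell list, and they appear beside Akap12, Niban3, Cpm and Rgs2 among these top genes. The list does not hold every gene of B cells, so nothing is read from the lack of listed genes beside the others, Ptprcap among them.

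Relatives of the 10 genes, such as other A-kinase anchors, DENN-domain proteins, class I myosins, RGS proteins and related receptors, were read as well. Of 92 listed, 84 were measured and 63 tested. By the limma test 5 fell and 3 rose in Fancc-/-, 0 and 0 changed in Fancg-/-, and 5 fell and 1 rose in the double knockout. At an unadjusted p below 0.05 the counts were 22, 6 and 26. Rises passed the test for 2.18% of all tested genes in Fancc-/-, 0.0084% in Fancg-/- and 2.27% in double knockouts. The knockout arrays lay below all wild-type arrays for 4 relatives: Dennd4b, Ptpn6, Csk and Gpr174. By limma 0 relatives were called between knockouts or by the slope on Cd79a (10 to 16 and 8 at an unadjusted p below 0.05).

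By role, 0 of 12 tested relatives of Akap12 and 0 of 2 of Niban3 passed the limma test in any comparison with wild type (up to 2 of each at an unadjusted p below 0.05). Niban2 had one of the wider differences, 1.76 ± 0.52 SE in the double knockout, with an SD of 1.49 (n = 3) there. Among DENN-domain genes Dennd5a, the closest relative of Dennd5b, stood at -0.02, -0.02 and -0.09, and Dennd4a rose in Fancc-/- (0.79). Of the myosins Myo1g fell (-0.86) and Myo1d rose (0.86) in Fancc-/-. Fam214b, the one relative of Fam214a measured, rose by 0.93 ± 0.15 SE in Fancc-/- and 0.78 ± 0.15 in the double knockout. Rgs14 (-0.74) and Rgs19 (-0.91) fell in the double knockout.

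Ptprc, which encodes the CD45 that Ptprcap binds, stood at -0.25, -0.13 and -0.14 and did not pass. Ptpn6, a phosphatase of lymphocyte and myeloid signalling, fell in Fancc-/- (-0.76) and the double knockout (-0.65), and Csk, which restrains Src kinases, fell in the double knockout (-0.67). Among receptors related to Gpr18, Gpr174 fell in Fancc-/- (-1.27) and the double knockout (-1.48), and Gpr171 fell in Fancc-/- (-1.60). Fcer2a, the low-affinity IgE receptor and a C-type lectin that is also on the B-cell list, fell in Fancc-/- (-2.10) and stood at -0.76 and -1.39 in the others. Cd209a, a close relative of Cd209d that is also on the dendritic cell list, stood at -1.32, -1.46 and -1.68 and did not pass in any. Apart from Cd209a, Fcer2a and Gpr174, which have the largest mean difference over the 3 knockouts, the relatives named here were picked after their values were seen.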

How the data were processed

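Each probe set had a deposited log2 value per array. The authors used RMA, and Partek is named as well, per the submitters' processing notes, which give no versions. RMA normalizes all arrays together, so a change in total RNA is not seen. Per the labels' protocols, total RNA (2 µg, 0.91 µg for 1 array) was amplified from an oligo-dT primer and labelled with biotin, with 1 mouse per array and no pooling.

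Of 45101 probe sets, 64 were controls, 34945 had 1 gene symbol and were used, 932 had several and 9160 none. Each of the 18193 genes was read on its brightest probe set, and the 11908 above the array median (percentile 50) on at least 3 arrays were tested. No probe set's level was set against another's. Arrays carry no depth, and their number, 3 a group, limits the precision.

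A limma 3.58.1 model (R 4.3.3) of the genotype means over the 12 arrays, with a variance trend and 8 residual degrees of freedom, gave the differences. A separate limma model with Cd79a added to the genotype means gave the slopes. SEs and 95% intervals came from the same fits. Testing was 2-sided, with Benjamini-Hochberg adjustment over all genes and a threshold of 0.05. Correlations over the 9 knockout arrays used exact permutation (Python 3.11.15, numpy 2.4.6, scipy 1.17.1). The fits were tested on simulated data.

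The genes and marker lists were chosen with earlier results of these data known. Named besides the 10 genes were Cd79a, the 3 most alike genes of each by Pearson r (predicted genes passed over), relatives called between knockouts or by the slope and the 3 with the largest differences from wild type, sex-linked genes, Fancc and Fancg, and up to 3 defining genes of a marker list. No relative was called in those comparisons, and most relatives named were picked after their values were seen. Same-numbered deviations from group means correlated from -0.37 to 0.20, above 0.1 in 6 of 18 pairs. All 3 pairs of wild type and Fancc-/- were above 0.1 (0.146 to 0.159), a contrast given with no test, and in no other pair of groups were all 3, so the numbers were not taken to pair the arrays there. The alternatives changed the filter, probe-set choice, normalization, variance model, covariates, the B-cell measure and the arrays used, and 1 further B-cell measure is not reported here. Proteins, and promoters of Akap12 and Ptprcap, were not analysed here.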

Additional observations from a re-analysis of the deposited data

Results flagged for a closer look

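Rgs2 differed between the single knockouts: it was higher in Fancg-/- than in Fancc-/- by 0.60 on the log2 scale (limma adjusted p = 0.0369, higher on 3 of 3 arrays), while both were lower than wild type. Its adjusted p ran from 0.021 to 0.639 over the alternatives.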

How the results depend on the processing

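The 10 genes stayed below wild type in 723 of 723 alternative values, 4 of which moved by more than the spread between replicates. The selection used these contrasts on the same arrays, so nothing is read from that count. With the filter at percentile 75, 5 genes were left and all 5 kept their knockout arrays below wild type, as a filter changes no value. In limma, array weights gave 2 of the 10 past the threshold in double knockout minus Fancc-/- (14.5% of all genes), 3 in double knockout minus Fancg-/- (18.9%) and 4 for the slope on Cd79a (23.2%). The 2 against Fancc-/- were Rgs2 (limma adjusted p = 0.0395) and the dim Cd209d, and nothing is read from the call of Cd209d. Ms4a1 in place of Cd79a gave 1, Dennd5b (slope 0.36, limma adjusted p = 0.0319, with 2.22% of all genes passing). Dennd5b was dim on most knockout arrays, so nothing is read from that call. Leaving out 1 array gave 0 to 1 in double knockout minus Fancg-/-, the 1 being Ptprcap (-0.70, adjusted p = 0.0428) without double-knockout replicate 1, where 8.34% of all genes passed.

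In Fancg-/- minus Fancc-/- the 1 call, Rgs2, became 0 with the mean of all probe sets, probe sets without a suffix, median centring, no variance trend, Xist as a covariate, only both groups compared, and without Fancg-/- replicates 1 and 3 (chosen after seeing the data). Leaving out 1 array gave 0 to 1. With the replicate number as a block it was 0 (limma adjusted p = 0.0646), although the numbers did not pair the arrays of these groups. The cause was not tested. Probe sets without a suffix left Akap12 and Cd209d without a value. The genes with all knockout arrays below wild type numbered 441, and 752 and 739 without wild-type replicate 1 or 3, and 734 without Fancg-/- replicates 1 and 3.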

Other observations

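Over the 9 knockout arrays, as a description of arrays that share a genotype and a library, Akap12 and Niban3 ran together (r = 0.88), as did Akap12 and Ptprcap (0.76) and Niban3 and Ptprcap (0.69). Myo1e and Gpr18, each other's nearest genes over all 12 arrays, had 0.55 over the knockouts alone. Fam214a and Rgs2 ran in opposite directions (-0.78).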
